A study of Homo sapiens with 16 samples.

Results

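Cholesterol and fatty acid synthesis genes were followed over 4 culture conditions of a human glioblastoma line, U-87MG. The list held 35 genes of sterol sensing, the mevalonate pathway, squalene and lanosterol synthesis, the steps to cholesterol, sterol trafficking and efflux, and fatty acid synthesis. A gene counted as measured where the platform annotation gave at least 1 row its symbol alone, and the row with the highest mean over the 16 arrays stood for it. By this rule 32 of the 35 genes were measured, of 14040 genes in all. No row carried the symbol of CYP51A1, HSD17B7 or FADS1 alone. The rule for the members uses no measured difference, but the list was drawn up with earlier results of these data known.

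The arrays measured RNA of cells given I3P (indole-3-pyruvate) at 25 µM together with SR1 at 1 µM, SR1 at 1 µM, I3P at 25 µM, or the carrier DMSO at 0.1%, with 4 arrays a group. I3P is a keto acid made from tryptophan, from which ligands of the aryl hydrocarbon receptor (AHR) can form, and SR1 is an antagonist of that receptor. The length of treatment is not given in the sources used here. Replicates 1 and 2 of each group carry the series letters SLI in their titles and replicates 3 and 4 the letters SMI. Values are RMA log2 intensities, so a difference of 1 is a 2-fold difference in signal, and a level says nothing about one gene relative to another. RNA came from whole cultures of a single line, so fewer cells with a transcript and less of it per cell cannot be told apart. Nothing in the labels says that replicates came from separate cultures, so p-values measure the spread between these samples. Array medians lay between 8.26 and 8.30, and the array of I3P replicate 1 stood apart from the other 15, correlating with them over genes at 0.877 to 0.910 where those correlated with each other at 0.921 to 0.979, so the main INSIG1 values, the list's median and the members whose I3P values turn on it are also given without it. Of the markers of astrocytes and glioma cells, VIM averaged 12.8 and GFAP 7.92, and no marker passed the test in any comparison.

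Cells make cholesterol from acetyl-CoA through mevalonate, squalene and lanosterol, and the enzymes of this route are switched on together by SREBP-2, the product of SREBF2, when membrane sterols run low. SREBP-1, the product of SREBF1, drives fatty acid synthesis in the same manner. Both factors are held in the endoplasmic reticulum with their escort SCAP by the INSIG proteins when sterols are plentiful, and INSIG1 is itself a target of the SREBPs. Efflux through ABCA1 and ABCG1 is under a separate control, the oxysterol-activated LXR receptors. Glioblastoma cells depend on a steady supply of cholesterol, which brain tissue makes locally because plasma lipoproteins do not cross the blood-brain barrier.

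INSIG1, the sterol-dependent anchor of SCAP, was the member with the largest change, and it was lower with SR1. INSIG1 signal was 10.36, 10.29, 9.85 and 10.31 in the SR1 cells (replicates 1 to 4), against 11.38, 11.00, 10.98 and 11.61 in the DMSO cells. Every SR1 array lay below every DMSO array. The change was -1.04 on the log2 scale (SE 0.20, 95% interval -1.46 to -0.61), a signal 2.05 times lower with SR1. With the replicate number as a block the interval was -1.30 to -0.78. The differences within replicate number were -1.02, -0.71, -1.13 and -1.29. The limma adjusted p (Benjamini-Hochberg over 14040 genes) was 0.0526 from the group means alone and 0.0016 with the replicate number as a block, so of these 2 fits only the blocked one passed the 0.05 threshold. At that threshold 0.164% of all genes were called without the block and 0.321% with it. Leaving out I3P replicate 1 gave an adjusted p of 0.0426 without the block.

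INSIG1 was higher in the cells given I3P on top of SR1 than in those given SR1 alone. Its signal was 11.18, 10.88, 11.01 and 11.66 in the I3P+SR1 cells, and all 4 values lay above the highest SR1 value of 10.36. The change was 0.98 (SE 0.20, 95% interval 0.55 to 1.41, or 0.72 to 1.24 with the block), a signal 1.97 times higher. Within replicate number it was 0.82, 0.59, 1.16 and 1.35. The limma adjusted p was 0.0915 without the block and 0.0033 with it. Here 0.114% of all genes were called without the block and 0.321% with it. This comparison and that of SR1 against DMSO share the SR1 arrays, so a low or high SR1 array enters both with opposite sign.

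In the other 3 comparisons of groups the INSIG1 values overlapped. I3P alone gave 11.90, 11.28, 11.28 and 11.74, and the change from DMSO was 0.30 (95% interval -0.12 to 0.73, limma adjusted p = 0.999). All 4 replicate numbers were higher with I3P, by 0.51, 0.28, 0.30 and 0.13, and without I3P replicate 1 the change was 0.19. I3P+SR1 cells were lower than I3P cells in all 4 numbers, with differences of -0.71, -0.40, -0.27 and -0.07. The mean difference was -0.36 (95% interval -0.79 to 0.06, limma adjusted p = 0.999), or -0.25 without I3P replicate 1. I3P+SR1 cells lay close to DMSO cells, with a mean difference of -0.06 (95% interval -0.48 to 0.37), an interval wide enough to hold a change like that of I3P alone in either direction. Between I3P+SR1 and I3P 0 of 32 members were without overlap, against 1.35% of all genes, and between I3P+SR1 and DMSO also 0, against 1.22%. The I3P effect in the presence of SR1 exceeded the I3P effect in its absence by 0.68 (SE 0.28, 95% interval 0.07 to 1.28), or by 0.79 without I3P replicate 1. Within replicate number this excess was 0.31, 0.31, 0.87 and 1.22. With the block its 95% interval was 0.31 to 1.05. This interaction had a limma adjusted p of 1.0 without the block and 0.922 with it, so it did not pass in either fit. Over all genes 1 passed, or 0.00712%, with or without the block, and 2.02% had an unadjusted p under 0.05, INSIG1 and MVD among them.

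**Figure D1:**
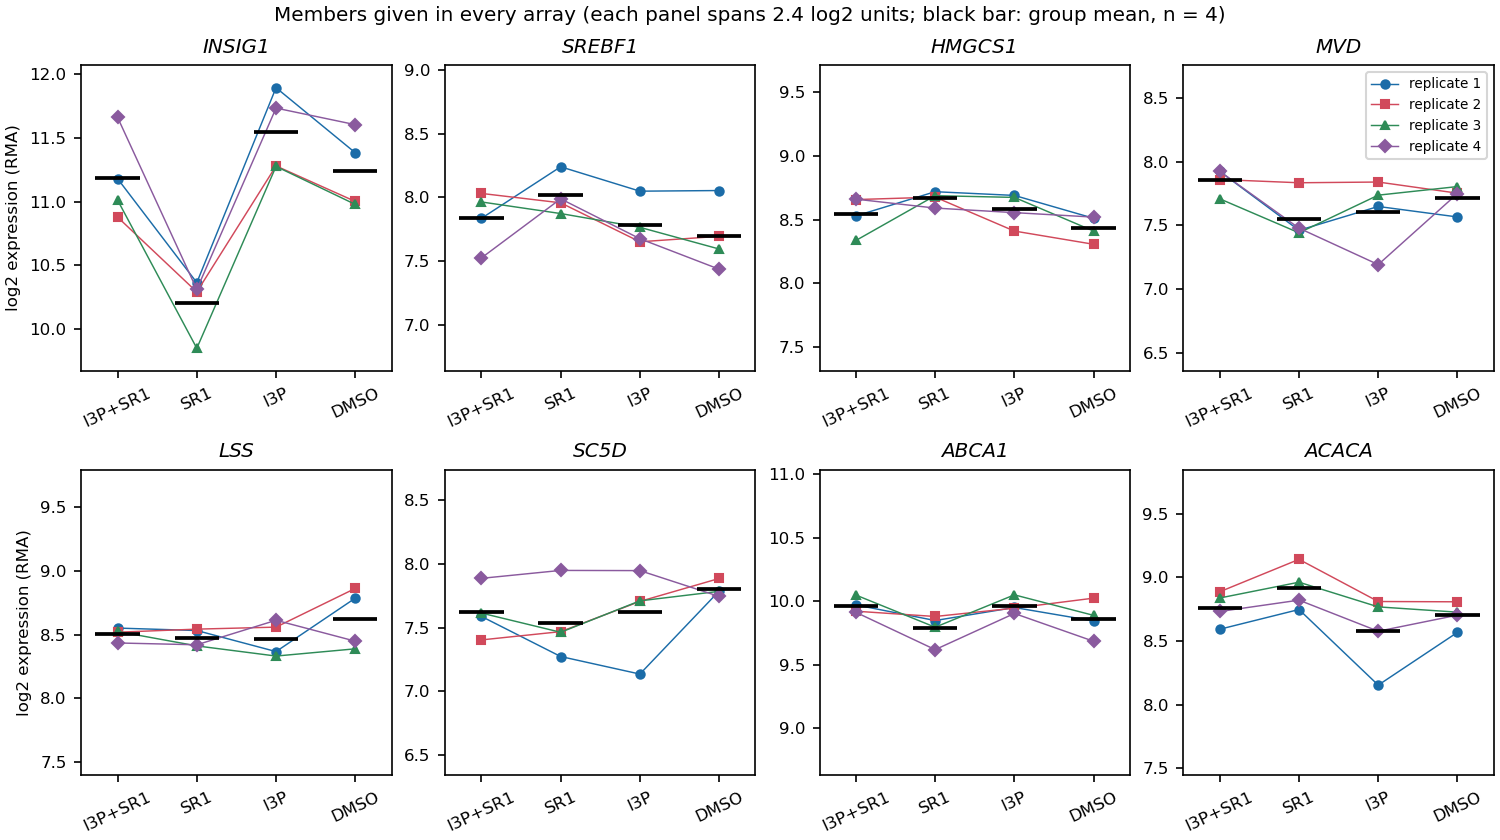
Log2 expression (RMA, vertical axis) of the 8 members given by array, 1 panel a gene, in the I3P+SR1, SR1, I3P and DMSO groups from left to right. Points are arrays, lines join arrays of the same replicate number, and black bars are group means (n = 4). INSIG1 is lowest in all 4 SR1 arrays, between 9.85 and 10.36, while the SR1 and DMSO means of the other 7 members differ by at most 0.32.

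The sequence before the INSIG1 start is shown because INSIG1 alone of the members passed the test. Those of LSS and MVD are shown as examples with as many AHR core motifs. NSDHL, not shown, also has 3. The windows are the 250 bases upstream of the transcript start in RefSeq, build GRCh38.p14, read 5′ to 3′ along the gene's strand. Capitals mark the AHR core motif GCGTG and the NF-Y motif CCAAT, each on either strand (as CACGC and ATTGG on the opposite strand). The windows are chr7:155297628-155297877 on the plus strand for INSIG1, chr21:46228775-46229024 on the minus strand for LSS, and chr16:88663092-88663341 on the minus strand for MVD.
INSIG1: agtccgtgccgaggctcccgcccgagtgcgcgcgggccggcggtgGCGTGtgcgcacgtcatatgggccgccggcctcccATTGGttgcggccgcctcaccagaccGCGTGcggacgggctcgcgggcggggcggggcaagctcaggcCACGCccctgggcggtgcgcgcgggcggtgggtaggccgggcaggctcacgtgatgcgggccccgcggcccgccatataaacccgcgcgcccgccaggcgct
LSS: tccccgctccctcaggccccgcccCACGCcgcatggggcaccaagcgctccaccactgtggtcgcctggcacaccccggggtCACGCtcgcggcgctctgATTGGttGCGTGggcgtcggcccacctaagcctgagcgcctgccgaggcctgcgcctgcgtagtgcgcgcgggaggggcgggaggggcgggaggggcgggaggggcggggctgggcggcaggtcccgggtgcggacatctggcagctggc
MVD: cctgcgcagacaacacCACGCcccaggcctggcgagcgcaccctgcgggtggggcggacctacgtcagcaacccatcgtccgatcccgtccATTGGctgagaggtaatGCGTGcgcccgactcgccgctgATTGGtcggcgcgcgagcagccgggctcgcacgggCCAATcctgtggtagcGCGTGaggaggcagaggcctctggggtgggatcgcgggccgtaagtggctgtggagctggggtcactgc

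The INSIG1 window holds 3 AHR core motifs, starting 205, 144 and 102 bases before the transcript start, and 1 NF-Y motif, starting 170 bases before it. The LSS window also holds 3 AHR cores and 1 NF-Y motif, and the MVD window 3 of each. Windows were given for 30 of the 35 listed genes, 40 windows in all. The AHR core was present in 29 of these 40 windows, or 22 of the 30 genes, against 32.2% of all 35116 windows in the table. NF-Y, a factor that binds beside SREBP at sterol-regulated promoters, had its motif in 25 member windows, or 21 genes, against 32.0% of all windows. The sterol regulatory motif TCACNCCAC was found in 1 member window, that of SREBF2, and in 0.883% of all windows. In SREBF2 it overlaps the only AHR core of that window, and SREBF2 signal differed by 0.00 between SR1 and DMSO cells (SE 0.16). The windows of the listed genes had a median G+C share of 68.2%, against 58% for all windows, and the part of base composition in these counts was not tested. These are matches of letters, and whether any of them bears on a change in signal was not tested.

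The named genes whose signal followed INSIG1 most closely were not on the list. Likeness was the Pearson correlation over the 16 arrays after each replicate number's mean had been subtracted, given as a description because the arrays share the treatments. The highest values were 0.975 for TIPARP, 0.974 for AGPAT9, 0.970 for CYP1B1, 0.968 for PITPNC1 and 0.964 for SLC16A6. TIPARP encodes an ADP-ribosyltransferase and CYP1B1 a cytochrome P450, both standard AHR targets. AGPAT9, now named GPAT3, encodes a glycerol-3-phosphate acyltransferase of triglyceride synthesis, PITPNC1 a phosphatidylinositol transfer protein and SLC16A6 a monocarboxylate transporter. The SR1 arrays were low for all 5 genes and so carry much of this likeness. Over the 12 arrays without the SR1 group the values were 0.889, 0.825, 0.865, 0.939 and 0.814 in the same order of genes. Among the other 31 members the correlation with INSIG1 ran between -0.80 for ACACA and 0.71 for ABCA1, with a median of -0.03 against -0.05 for all genes. Without the SR1 arrays the value was 0.22 for ABCA1 and -0.81 for ACACA, and the members ran between -0.87 for PMVK and 0.69 for MYLIP. FASN turned from -0.45 over all arrays to 0.66 without them. These 12 arrays include I3P replicate 1, which stood apart, and the members' correlations were not calculated without it. In that array MYLIP was 8.29, against 7.13 to 7.50 in the other I3P arrays.

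**Figure D2:**
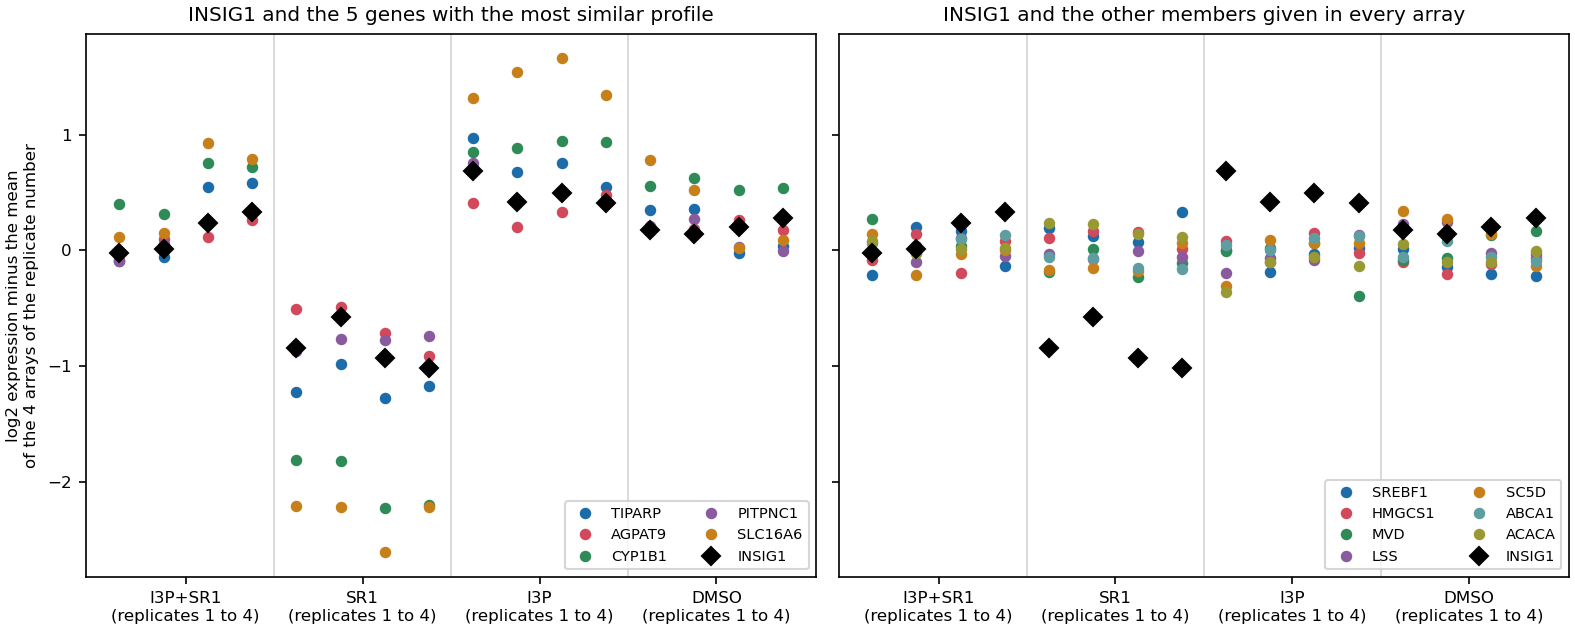
Log2 expression minus the mean of the replicate number's 4 arrays (vertical axis) in the 16 arrays, by group as I3P+SR1, SR1, I3P and DMSO, for INSIG1 (black diamonds) with the 5 genes most like it (left) and with the other 7 members given by array (right). On the left all 6 genes have their lowest values in the 4 SR1 arrays. On the right INSIG1 is again lowest in the SR1 arrays, and ACACA is highest in them by a smaller distance.

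No other gene of sterol sensing passed the test. SREBF1 signal was 8.24, 7.96, 7.87 and 7.99 in the SR1 cells, against 8.05, 7.69, 7.60 and 7.44 in the DMSO cells. All 4 numbers were higher with SR1, by 0.32 on average (SE 0.15, limma adjusted p = 1.0), though the groups overlapped. In the I3P+SR1 cells SREBF1 was 7.84, 8.03, 7.96 and 7.53, a difference of -0.18 from SR1, and it was 8.05, 7.65, 7.77 and 7.68 in the I3P cells. SREBF2, the SREBP-2 gene, had differences between 0.00 and 0.03 in all 5 comparisons of groups. SCAP, the escort that INSIG1 binds, had differences between -0.11 and 0.08.

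In the mevalonate and isoprenoid steps no gene passed the test in any comparison. HMGCS1, which condenses acetoacetyl-CoA with acetyl-CoA, was the other member besides INSIG1 whose SR1 and DMSO arrays did not overlap. It was 8.72, 8.68, 8.69 and 8.59 in the SR1 cells, against 8.51, 8.31, 8.41 and 8.52 in the DMSO cells, a difference of 0.23 (SE 0.10, limma adjusted p = 1.0). Those 2 of 32 members (6.25%) stand beside 2.45% of all genes without overlap in that comparison. HMGCS1 was 8.53, 8.66, 8.34 and 8.66 in the I3P+SR1 cells and 8.69, 8.41, 8.67 and 8.56 in the I3P cells, which overlapped both other groups.

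MVD, the decarboxylase that makes isopentenyl diphosphate, had its highest mean in the I3P+SR1 cells. Its signal there was 7.92, 7.86, 7.71 and 7.92, against 7.46, 7.83, 7.44 and 7.48 in the SR1 cells, a difference of 0.30 (SE 0.14, limma adjusted p = 1.0). SR1 replicate 2 was the only SR1 array within the I3P+SR1 range. MVD was 7.65, 7.84, 7.74 and 7.19 in the I3P cells and 7.57, 7.75, 7.80 and 7.75 in the DMSO cells, and its interaction was 0.41 (SE 0.19, limma adjusted p = 1.0). FDPS, farnesyl diphosphate synthase, was 9.39, 9.85, 9.86 and 9.54 in the I3P cells, all below the DMSO values of 9.98, 9.97, 9.89 and 9.91. It was the only member of 32 (3.12%) without overlap between I3P and DMSO, against 1.57% of all genes. The difference was -0.28 (SE 0.12, limma adjusted p = 0.999), and -0.19 (SE 0.12) without I3P replicate 1. IDI1, the isomerase between MVD and FDPS, was lower with SR1 in all 4 numbers, by 0.24 on average (SE 0.16). ACAT2, MVK and PMVK differed by at most 0.07 between SR1 and DMSO.

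The squalene and lanosterol enzymes varied little. FDFT1 and SQLE, squalene synthase and squalene epoxidase, had differences between -0.13 and 0.04 in the 5 comparisons of groups. LSS, lanosterol synthase, was 8.55, 8.52, 8.53 and 8.44 in the I3P+SR1 cells, 8.53, 8.54, 8.41 and 8.42 in the SR1 cells, 8.37, 8.56, 8.33 and 8.61 in the I3P cells and 8.79, 8.86, 8.39 and 8.45 in the DMSO cells. DMSO replicates 1 and 2 were the highest LSS arrays, while DMSO replicates 3 and 4 lay within the range of the I3P arrays. LSS thus differed by -0.14 between SR1 and DMSO (SE 0.12).

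Of the 6 enzymes between lanosterol and cholesterol, 5 were lower with SR1 than with DMSO, none past the test. Of all 14040 genes 6907 were lower. The group's median within replicate number was -0.08, -0.12, -0.19 and 0.14. TM7SF2, a sterol C14 reductase, had the lowest value of the group at -0.33 (SE 0.25). Its I3P+SR1 arrays averaged 0.48 below DMSO, lower in all 4 numbers, and did not pass the limma test in either fit. SC5D, the sterol C5 desaturase, was 7.59, 7.40, 7.61 and 7.89 in the I3P+SR1 cells, 7.27, 7.47, 7.46 and 7.95 in the SR1 cells, 7.14, 7.71, 7.71 and 7.95 in the I3P cells and 7.79, 7.89, 7.79 and 7.75 in the DMSO cells. The DMSO arrays of SC5D spanned the least, with an SD of 0.06 against 0.29 with SR1. DHCR7, which completes cholesterol, was higher with SR1 than with DMSO, by 0.18 (SE 0.32). MSMO1, NSDHL and EBP differed from DMSO by -0.08 to -0.03 with SR1.

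Among the trafficking and efflux genes, ABCA1 separated the I3P+SR1 from the SR1 arrays. ABCA1, the cholesterol exporter, was 9.97, 9.92, 10.05 and 9.91 in the I3P+SR1 cells, against 9.85, 9.88, 9.80 and 9.62 in the SR1 cells, a difference of 0.18 (SE 0.10). INSIG1 and ABCA1 were the 2 members of 32 (6.25%) without overlap there, against 2.91% of all genes. ABCA1 was 9.95, 9.95, 10.05 and 9.90 in the I3P cells and 9.84, 10.02, 9.89 and 9.68 in the DMSO cells. The second exporter, ABCG1, differed by 0.20 (SE 0.18) between I3P+SR1 and SR1. MYLIP, a ubiquitin ligase for lipoprotein receptors that LXR controls, was 8.29, 7.13, 7.15 and 7.50 in the I3P cells, against 7.13, 7.46, 7.04 and 7.23 in the DMSO cells. Its difference of 0.30 (SE 0.20) rested on I3P replicate 1 and was 0.04 without that array. Between I3P+SR1 and I3P it differed by -0.41, and by -0.15 without the same array. NPC1, which exports cholesterol from lysosomes, and STARD4, a sterol carrier, differed by 0.07 and -0.08 between SR1 and DMSO.

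The fatty acid genes were the group of members with the highest median under SR1. Of the 7 genes, 5 were higher than with DMSO, as were 50.8% of all genes. The median difference of the 7 was 0.13 against 0.00 for all genes. The group's median within replicate number was 0.13, 0.12, 0.06 and 0.14. ACACA, the acetyl-CoA carboxylase that makes malonyl-CoA, was 8.75, 9.14, 8.96 and 8.82 in the SR1 cells, against 8.57, 8.81, 8.73 and 8.70 in the DMSO cells, a difference of 0.22 (SE 0.14). It was higher with SR1 in all 4 numbers, and so were ACLY, FASN and FADS2, with differences of 0.08, 0.17 and 0.19. With the block the SE of ACACA was 0.09. None of the 7 passed the limma test with or without the block.

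Between I3P+SR1 and SR1 the same 7 genes had a median difference of -0.11, against -0.01 for all genes, with 5 of them lower. ACACA was 8.59, 8.89, 8.84 and 8.73 in the I3P+SR1 cells, lower than with SR1 by 0.16 on average, and 8.15, 8.81, 8.77 and 8.58 in the I3P cells. FASN, the fatty acid synthase, was 8.48, 8.58, 8.72 and 8.79 in the I3P+SR1 cells, against 8.81, 8.60, 9.01 and 9.21 in the SR1 cells. FASN was lower in all 4 numbers, by 0.26 on average (SE 0.15, or 0.09 with the block). Its limma adjusted p was 1.0 without the block and 0.438 with it. SCD, the stearoyl-CoA desaturase, differed by -0.15, and the elongase ELOVL6 by 0.18. ACSS2, which makes acetyl-CoA from acetate, differed by 0.13. Both comparisons use the SR1 arrays, so these values are not separate evidence.

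**Figure D3:**
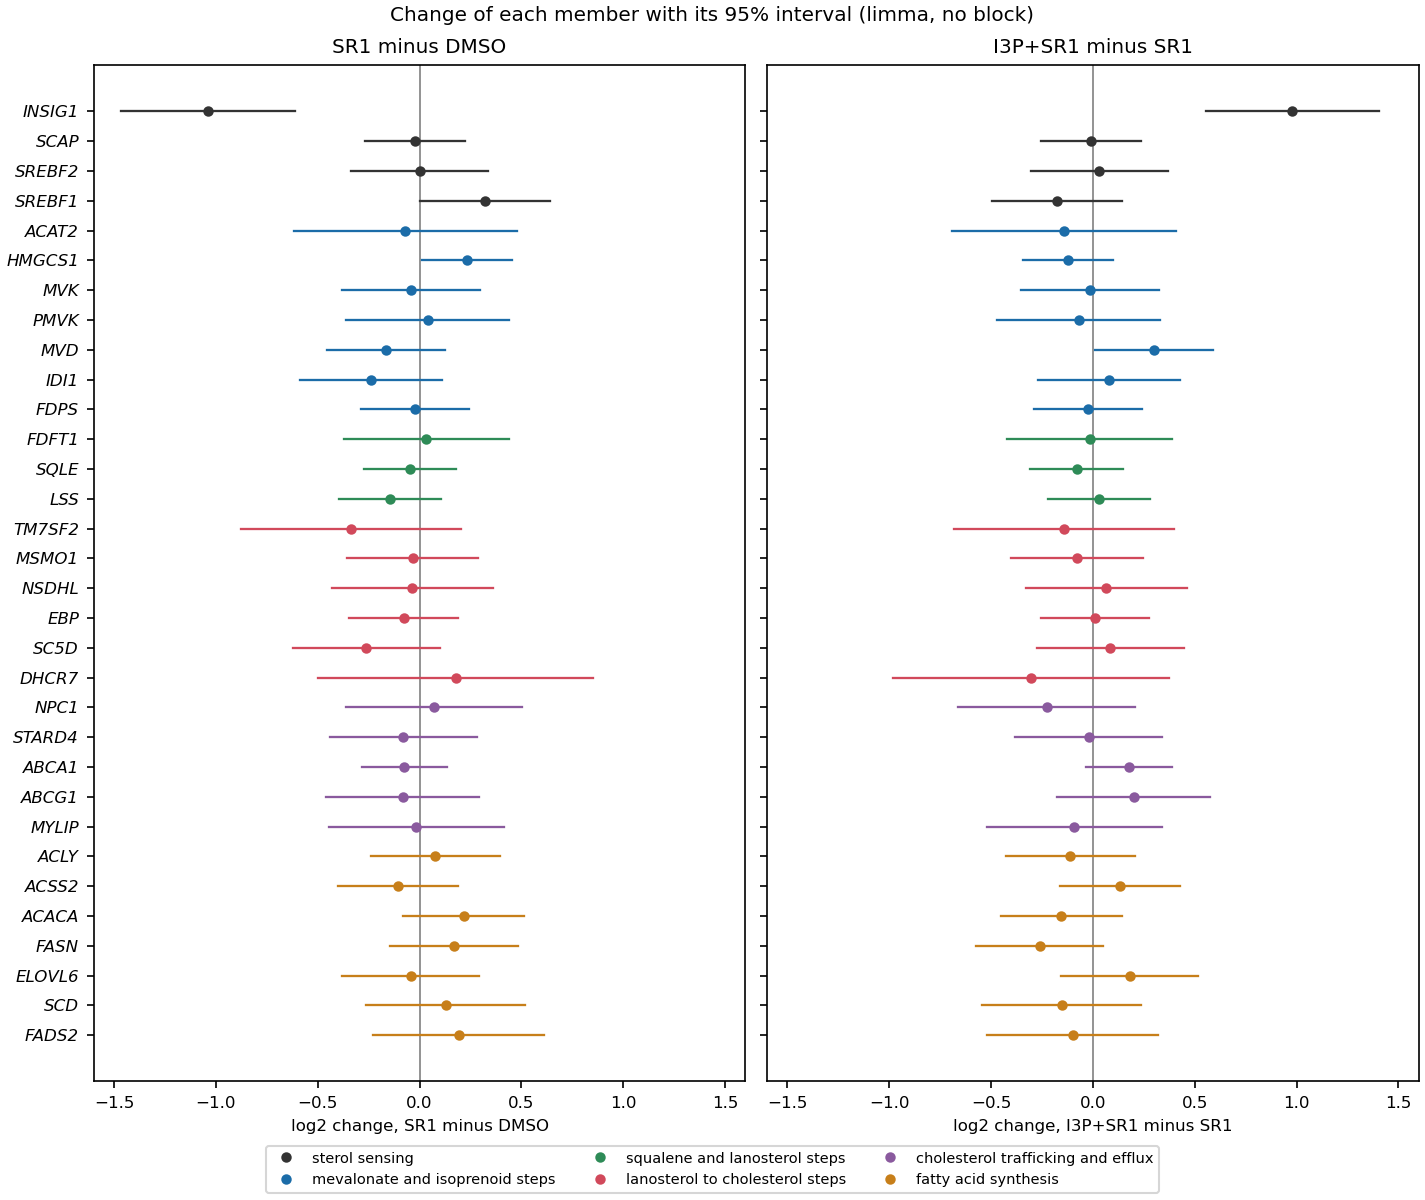
Log2 change with its 95% interval (horizontal axis, limma without the block) of the 32 members, coloured by role, for SR1 minus DMSO (left) and I3P+SR1 minus SR1 (right). INSIG1 is at -1.04 and 0.98, and the other 31 members lie between -0.33 and 0.32.

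**Figure D4:**
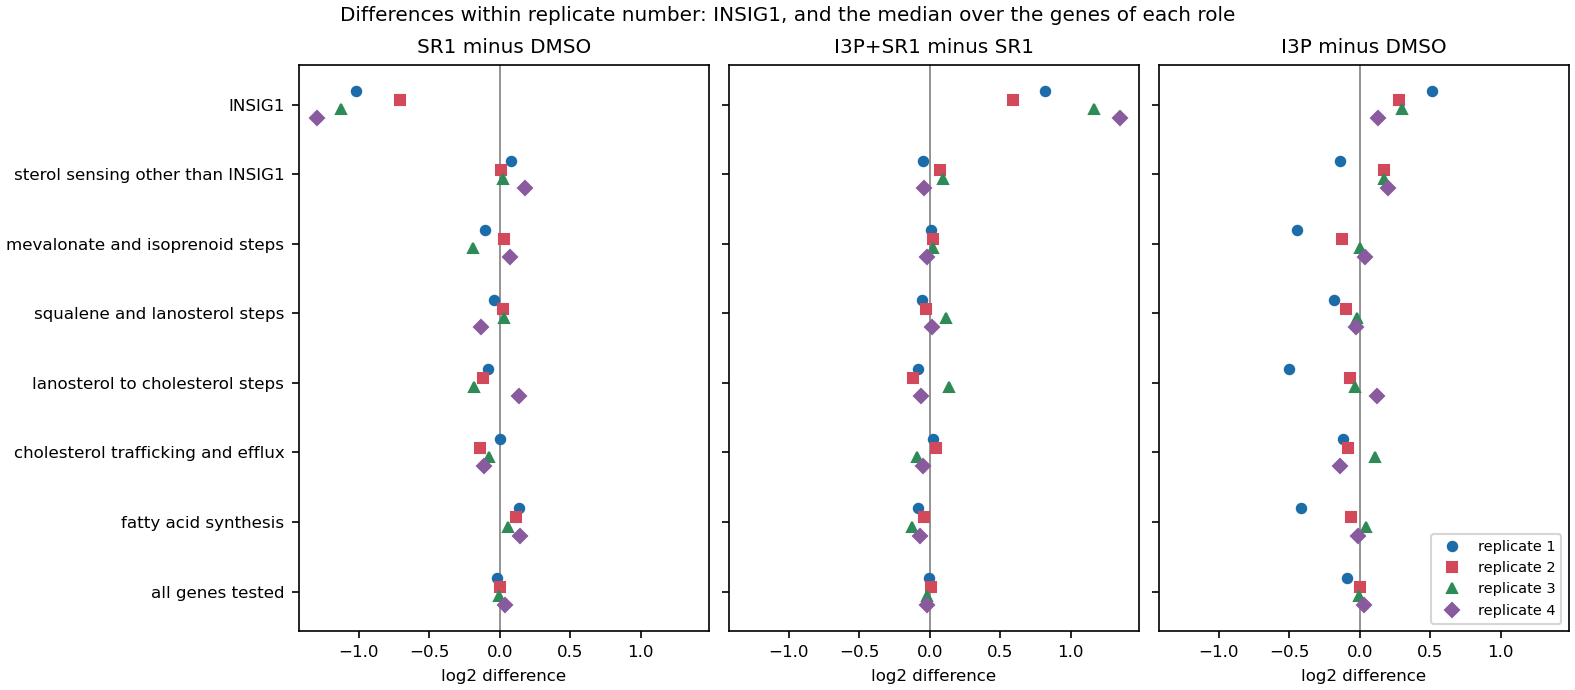
Log2 difference within replicate number (horizontal axis) of INSIG1, of the median over the members of each role and of the median over all genes tested, for SR1 minus DMSO, I3P+SR1 minus SR1 and I3P minus DMSO, with 1 symbol for each of the 4 replicate numbers. The median over the fatty acid genes is above 0 in all 4 numbers in the first panel and below 0 in all 4 in the second. In the third, replicate 1 is lowest for all genes tested and for every role (sterol sensing without INSIG1) except trafficking and efflux.

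Over the list as a whole, INSIG1 was alone in its size of change. Without the block 0 of 32 members passed the limma test in any comparison, with 3 members under an unadjusted p of 0.05 for SR1 against DMSO, where 2.93% of all genes were. For I3P+SR1 against SR1 2 members were under it, INSIG1 and MVD, where 3.70% of all genes were. With the block 1 member passed, INSIG1, in both of these comparisons. In that fit 5 members were under an unadjusted p of 0.05 for SR1 against DMSO, as were 866 of the 14040 genes. For I3P+SR1 against SR1 4 members were, as were 1061 genes. The 95% intervals of the other 31 members, each taken singly, all left out INSIG1's change in both comparisons. The lowest bound for SR1 against DMSO was -0.87, for TM7SF2, and the highest bound for I3P+SR1 against SR1 was 0.59, for MVD. The median over all 32 members was -0.04 for SR1 against DMSO, with 12 higher and 20 lower, against 0.00 for all genes. It was -0.02 for I3P+SR1 against SR1, against -0.01 for all genes. Apart from INSIG1, 6 of 31 members were higher with SR1 in all 4 numbers and 1 was lower, where 9.24% and 8.12% of all genes were. Between I3P+SR1 and SR1, 3 were higher in all 4 numbers and 6 lower, where 8.75% and 10.9% of all genes were.

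Further genes of both pathways were called in no comparison, and the further fatty acid genes did not repeat the direction of the 7 members. Of 56 further genes listed, 43 had a row, and none passed in any comparison with or without the block. For SR1 against DMSO the smallest p-values belonged to C14orf1, an endoplasmic reticulum protein that tethers sterol enzymes, at -0.20 (SE 0.11), and to GPAM, a mitochondrial glycerol-3-phosphate acyltransferase, at -0.39 (SE 0.26). RNF139, a ubiquitin ligase that binds INSIG proteins, differed by -0.16. Between I3P+SR1 and SR1 GPAM differed by 0.42, MLXIPL, the glucose-responsive activator of lipogenic genes, by 0.42 and RNF139 by 0.21. The 22 further sterol genes had a median of -0.03 for SR1 against DMSO, and the 21 further fatty acid genes a median of -0.02. Of these 21, 14 were lower with SR1, where 5 of the 7 fatty acid members were higher. Between I3P+SR1 and SR1 12 of the 21 were higher, with a median of 0.01, where 5 of the 7 members were lower.

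With I3P alone, the members as a list were low mainly in 1 array. The within-number median over the 32 members was -0.35 for replicate 1 and -0.07, 0.04 and 0.09 for replicates 2 to 4, against -0.09, 0.00, -0.00 and 0.03 for all genes. In replicate 1, 17 of 32 members (53.1%) were lower with I3P by over 0.3, and so were 32.4% of all genes. In replicates 2, 3 and 4 the counts were 4, 0 and 2 members (12.5%, 0% and 6.25%), where 8.27%, 9.96% and 11.9% of all genes were lower by as much. The median change of the members over the 4 numbers was -0.06, and -0.01 without I3P replicate 1. No member passed the limma test for I3P against DMSO, for I3P+SR1 against I3P or for I3P+SR1 against DMSO, where 0 of 14040 genes passed without the block and 2.81%, 3.32% and 1.38% had an unadjusted p under 0.05.

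Most members varied more between replicate numbers than between treatments. The range of the 4 replicate-number means exceeded the range of the 4 group means in 25 of 32 members (78.1%), against 71.3% of all genes. INSIG1 was an exception, with a range of 1.34 over groups and 0.55 over replicate numbers. In 16 of 32 members (50%) the means of the 2 SMI numbers lay wholly apart from those of the 2 SLI numbers, against 46.9% of all genes. Of these 16, 12 were lower in SMI and 4 higher, and the median SMI minus SLI difference was -0.17 over the members and -0.02 over all genes. DHCR7 was 0.57 lower in SMI on average, FDFT1 0.40 lower and NPC1 0.37 lower, while FASN was higher by 0.31 and SC5D by 0.23. What the letters stand for is not given in the sources used here, and with 2 numbers in each series no test was made. Each series holds all 4 groups equally, so a shift shared by all 4 does not enter the mean difference between groups. A treatment effect that differs between the series enters it as an average. The INSIG1 interaction was 0.31 and 0.31 in the SLI numbers and 0.87 and 1.22 in the SMI numbers.

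**Figure D5:**
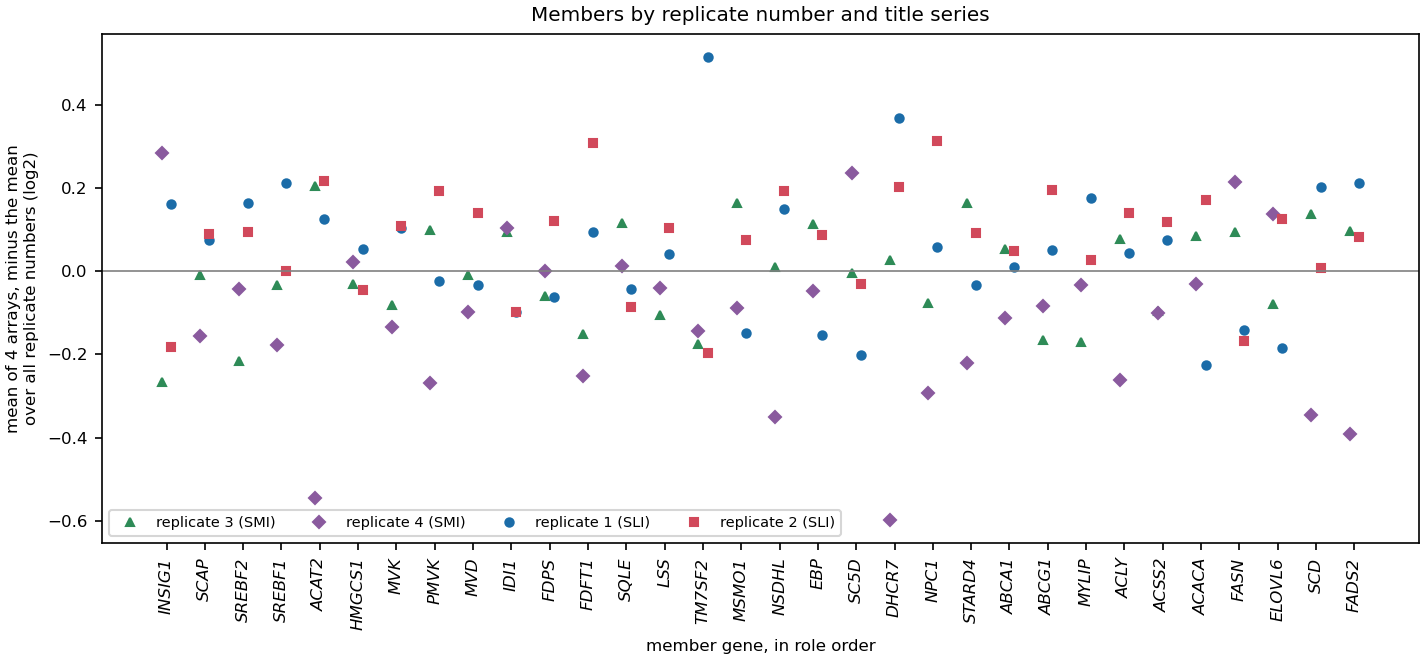
Mean log2 expression over the 4 arrays of a replicate number minus the mean over all replicate numbers (vertical axis) for the 32 members in role order, with replicates 3 and 4 (SMI) and replicates 1 and 2 (SLI) as symbols. Both SMI symbols lie below both SLI symbols in 12 members, DHCR7 among them, and above them in 4, FASN among them.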

How the data were processed

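RNA of U-87MG cells was measured on 16 expression arrays. The authors' deposited log2 values had been normalized with RMA in oligo, per the submitters' processing notes (versions not given in the sources used here), and were used as deposited. The 16510 rows were named through the platform annotation, in which 14096 rows have 1 symbol, 795 several and 1619 are not listed. The row with the highest mean over 16 arrays was kept per symbol, and no filter on low values was used, so all 32 members entered the tests. The table gives no detection calls, so presence was not judged, and the number of arrays limits the precision.

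Group means were fitted with limma 3.58.1 in R 4.3.3 (lmFit, eBayes) over 16 arrays, with p-values adjusted by Benjamini-Hochberg over 14040 genes and a threshold of 0.05. The blocked fit adds the replicate number. Deviations from group means correlated at 0.30 to 0.52 between same-numbered SR1 and DMSO arrays, at 0.37 to 0.65 between I3P+SR1 and SR1, and at 0.22 to 0.52 between I3P+SR1 and DMSO, which pairs them by the rule that all 4 exceed 0.1. For I3P against DMSO 3 of 4 did, and for I3P+SR1 against I3P 2 of 4. No 2 arrays held identical values. The fits were tried on simulated data with independent noise in each array and no effect of replicate number. That simulation therefore did not test the block on arrays that correlate within replicate number. The members, the further gene lists and the tests were chosen with earlier results of these data known. Genes named are INSIG1, 7 members given by array under a written rule, the 5 genes most like INSIG1, and further genes by smallest p; FDPS, FASN, TM7SF2 and other members were named by role or after their values were seen. Promoter windows are RefSeq's (GRCh38.p14), searched on both strands.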

Additional observations from a re-analysis of the deposited data

Results flagged for a closer look

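The 8 members given by array were looked over for a single array far from the other 3 of its group, 32 groups in all, and chance alone marks about 1 group in 20. INSIG1 in SR1 replicate 3 was 9.849, below the other SR1 arrays at 10.29 to 10.36, and MVD in SR1 replicate 2 was 7.834, above the others at 7.44 to 7.48. Without SR1 replicate 3 the blocked INSIG1 difference between SR1 and DMSO was -0.999, close to the -1.04 over all arrays.

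The 32 members were also looked over for opposite I3P or SR1 effects, and FASN, the fatty acid synthase, was marked. Its mean differences with SR1 had opposite signs in the presence and absence of I3P. The share of all genes that the same rule would mark is not given here. With I3P present, all 4 replicate numbers were lower with SR1, by 0.19 on average, and without I3P all 4 were higher, by 0.17 on average. The difference of these effects was -0.3624 (SE 0.21), with a limma adjusted p of 1.0 without the block and 0.995 with it. It did not pass over all genes, and its cause was not tested.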

How the results depend on the processing

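INSIG1 kept its direction in the 2 comparisons with the SR1 group under every setting tried, but its call depended on the model. For SR1 against DMSO the change was -1.04 and not past the threshold from group means, with 0 members called. It passed, as the 1 member called, with the replicate block (-1.04, adjusted p 0.00159), with a trended and robust eBayes (-1.04, 0.0198), with array weights (-1.01, 0.00962) and with the lowest 25% of genes left out (-1.04, 0.0315). For I3P+SR1 against SR1 1 member, INSIG1, passed with the block (0.98, 0.00329), the trended fit (0.98, 0.0431) and array weights (0.95, 0.0471). Leaving out 1 array at a time without the block, the SR1 against DMSO change ran between -1.13 and -0.92 (adjusted p 0.0302 to 0.302) and the members called between 0 and 1, with INSIG1 called without I3P replicate 1 and without I3P+SR1 replicate 4. The I3P+SR1 against SR1 change ran between 0.82 and 1.08 (adjusted p 0.0797 to 0.443) with 0 members called. With the block and 1 array left out, a setting added after seeing the data, INSIG1 passed in all 16 fits of both comparisons, at -1.16 to -0.96 and at 0.89 to 1.099. The block changed no other member's call. For I3P+SR1 against DMSO the small INSIG1 difference of -0.06 turned to 0.0453 in the SMI arrays alone, and ran between -0.22 and 0.0618 with 1 array left out, or between -0.15 and 0.01 with the block. For I3P+SR1 against SR1 LSS turned to -0.00234 in the SLI arrays alone, and SC5D, at 0.08 in all arrays, ran between -0.00389 (without SR1 replicate 1) and 0.222. With 1 array left out, the members' median ran between -0.0850 and 0.0130 for SR1 against DMSO, between -0.0803 and 0.00494 for I3P+SR1 against SR1, and between -0.0971 and 0.0210 for I3P+SR1 against DMSO, so its sign is not settled in any of the 3. All genes called for SR1 against DMSO numbered 23, 45 with the block, 39 with array weights, 6 from the 2 groups alone, 4 in SLI, 1 in SMI and 9 to 25 with 1 array left out. For I3P+SR1 against SR1 they numbered 16, 45 with the block, 27 with the title series as a block, 7 from the 2 groups alone, 1 in either series and 10 to 18 with 1 array left out. In SLI alone 1 gene was called between I3P+SR1 and I3P and 0 for the interaction.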
